A study of Homo sapiens with 12 samples.

Results

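The genes described here encode the proteins of the mitochondrial ribosome. They were taken as every gene symbol in the deposited count tables that starts with MRPL or MRPS followed by digits, with at most 1 letter after the digits and without the pseudogenes that carry a P in that place. The rule found 76 of 23106 symbols, 47 named MRPL and 29 named MRPS, and left out 3 pseudogene symbols. By the current assignment of the proteins, 49 belong to the large subunit and 26 to the small subunit. The remaining gene, MRPS36, kept its name although its product is now placed in the oxoglutarate dehydrogenase complex.

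The mitochondrial ribosome translates the few proteins that mitochondrial DNA encodes, all of them membrane subunits of the respiratory complexes and of ATP synthase. Its own proteins are encoded in the nucleus, made on cytosolic ribosomes and imported. Some have a counterpart in bacterial ribosomes and others were added in the mitochondrial lineage. In clear cell renal cell carcinoma (ccRCC), loss of VHL stabilises the hypoxia-inducible factors HIF-1α and HIF-2α, and HIF-1 is known for lowering mitochondrial activity through several of its target genes.

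RNA was sequenced in bulk from RCC4, an established human ccRCC line without functional VHL, and every group shared this VHL loss. Cells were harvested 48 h after transfection with 2 nM siRNA in total, in 4 conditions with 3 replicates each and 12 libraries in all. The medium was changed at 24 h, and all 12 libraries are listed at 21% oxygen. The control group received 2 nM control siRNA. The HIF1A siRNA group received 1 nM siRNA against HIF1A with 1 nM control siRNA, the HIF2A siRNA group received 1 nM siRNA against EPAS1, the gene of HIF-2α, with 1 nM control siRNA, and the double knockdown received 1 nM of each HIF siRNA. The study's methods pair the conditions by biological replicate, while the labels give only replicate numbers. The p-values measure the spread left between these samples after replicate number is fitted, and that spread may be partly technical. In bulk RNA, fewer cells that express a gene and less RNA per cell cannot be told apart.

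Libraries held 13263168 to 20451433 counts, and levels are given as CPM (counts scaled to the same library total) after correction of each library by its TMM factor, which lay between 0.980 and 1.02. HIF1A was at 58.2 to 120 CPM with control siRNA, 15.0 to 22.2 CPM with HIF1A siRNA and 24.2 to 32.2 CPM in the double knockdown, and EPAS1 was at 138 to 171 CPM with control siRNA, 9.16 to 11.9 CPM with HIF2A siRNA and 7.01 to 11.3 CPM in the double knockdown. EPAS1 was also lower with HIF1A siRNA alone, at 101 to 134 CPM without overlap with control siRNA, by 0.47 on the log2 scale and in 3 of 3 pairs, but this failed the correction (adjusted p = 0.280, quasi-likelihood test of edgeR). Of 8 markers of renal epithelium and its tumours, 7 passed the expression filter, KRT8 and PAX8 among them, while CDH1 stayed at or below 0.482 CPM. Of 9 markers of immune, endothelial and stromal cells, PTPRC, CD3E and PECAM1 had no counts and 3 passed the filter (CD68, COL1A1 and PDGFRB).

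The set was well expressed, and 75 of 76 genes passed the filter. Their summed counts made up 0.439 to 0.751% of a library. Each gene's level was also divided by the length of its canonical transcript in GENCODE v44, which need not be the transcript these cells use. On that scale of CPM per kb, averaged over 12 libraries, the highest level was that of MRPS24, the counterpart of bacterial S3, at 233 CPM per kb. It was followed by MRPL37 at 223, MRPL51 at 219 and, with nearly equal levels, MRPS15 and MRPL18 at 167 CPM per kb. MRPS24 shares exons on the same strand with a read-through gene model, URGCP-MRPS24, so its level may depend on how reads of the shared exons were counted.

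The lower end of that order was set partly by annotated length. MRPL42 stood at 3.62 CPM per kb over an annotated transcript of 15557 bases, although its level without that division was 56.3 CPM, close to that of many other genes of the set. Next came MRPL50 at 5.58, MRPS11 at 8.90, MRPS25 at 9.90 and MRPS31 at 9.96 CPM per kb. MRPS36, the gene outside the ribosome, was at 15.3 CPM per kb.

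**Figure D1:**
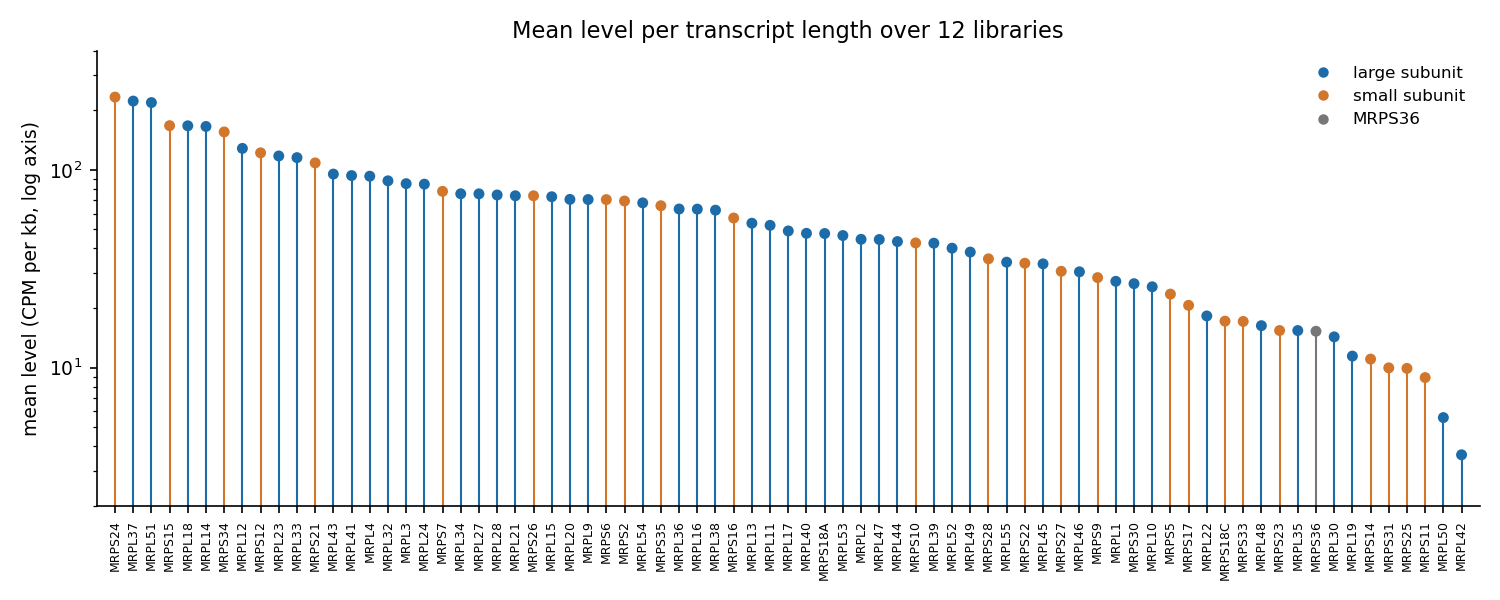
Mean level of the 75 genes with counts over 12 libraries, in CPM per kb of canonical transcript on a log axis, ordered from the highest and coloured by subunit. Genes of both subunits run through the whole order, from MRPS24 at 233 to MRPL42 at 3.62 CPM per kb.

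The gene without counts was MRPS18B. It is 1 of 3 relatives of bacterial S18, of which MRPS18A sits in the large subunit and MRPS18B and MRPS18C in the small subunit. MRPS18B was listed at 0 in each of the 12 libraries. Its neighbours in the order of RefSeq genes, PPP1R10 and C6orf136, were also listed at 0, while ATAT1 had at most 1 count and DHX16 at most 2, so the 0 belongs to a whole stretch of the count tables. MRPS18A had a mean of 55.4 CPM over 12 libraries and MRPS18C had 26.6 CPM. Both overlap exons of another gene on the opposite strand (RSPH9 and ABRAXAS1), and whether counting used the strand is not given in the sources used here.

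Most of the variation in the set followed the replicate number and not the siRNA. For each gene the variance of log2 CPM over 12 libraries was split into a share for replicate number, a share for siRNA and a remainder. These are shares of summed squares, without allowance for the number of conditions or of replicates. They describe the spread and test nothing. With the variance pooled over the 75 genes, so that more variable genes weighed more, replicate number took 68.2%, siRNA 13.5% and the remainder 18.3%. Over all 13000 genes tested the shares, pooled in the same way, were 49.8, 25.8 and 24.4%. Replicate number was the largest of the 3 shares for 58 of 75 genes, against 7257 of 13000 overall. Its pooled share was 72.1% in the large subunit and 62.0% in the small subunit.

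The direction was nearly the same throughout, with replicate 3 low. Replicate 3 was the lowest library in all 4 conditions for 52 of 75 genes (69.3%), against 20.5% of all genes. For 40 genes (53.3%, against 12.1%) all 4 replicate 3 libraries lay below the other 8. The median difference of replicate 3 from the mean of replicates 1 and 2 was -0.37 on the log2 scale with control siRNA, -0.60 with HIF1A siRNA, -0.41 with HIF2A siRNA and -0.59 in the double knockdown, and over all genes it lay between -0.01 and 0.02. The subunits of the respiratory complexes had medians from -0.45 to -0.68 and the cytosolic ribosomal proteins from -0.29 to -0.64. The labels do not say what a replicate number stands for beyond a repeat. The summed level of the 9 markers of other cells was also apart in these libraries, at 97.8 to 139 CPM in replicate 3 and 64.1 to 86.4 CPM in replicates 1 and 2. Most of that sum was CD68 and COL1A1. Both were highest in replicate 3 within each condition but overlapped across conditions. COL1A1 was at 35.4 CPM in control replicate 3 and 51.3 CPM in HIF2A siRNA replicate 2. The summed level of the 8 epithelial and renal tumour markers was lower in replicate 3, at 870 to 1036 CPM against 1178 to 1462 CPM. KRT8, KRT18, KRT19, EPCAM, PAX2 and CA9 were lowest in replicate 3 within each condition, though CA9 also fell with HIF1A siRNA. PAX8 was not, at 197, 267 and 222 CPM in control replicates 1 to 3 and 274, 215 and 242 CPM with HIF2A siRNA. The summed level of 6 interferon-stimulated genes was 137 to 175 CPM in replicate 3 against 173 to 623 CPM. The part of these values in the difference was not tested.

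MRPS5, the counterpart of bacterial S5, showed the replicate pattern in its purest form, with 98.1% of its variance. Its level was 79.5, 89.7 and 59.3 CPM in control replicates 1 to 3, 81.8, 95.8 and 56.1 CPM with HIF1A siRNA, 79.9, 90.0 and 58.8 CPM with HIF2A siRNA and 83.6, 97.0 and 59.2 CPM in the double knockdown. The same 3 levels recurred in every condition, and the groups overlapped. MRPL51 was alike, with a replicate share of 97.3%.

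A few genes, chosen after their values were seen, did not follow the set. MRPS10, the counterpart of bacterial S10 in the small subunit head, gave 9.75% of its variance to replicate number and 70.7% to siRNA. Its level was 83.0, 79.6 and 80.5 CPM with control siRNA, 86.0, 101 and 101 CPM with HIF1A siRNA, 83.0, 73.2 and 85.9 CPM with HIF2A siRNA and 102, 91.5 and 110 CPM in the double knockdown. The libraries with HIF1A siRNA, alone or combined, were all above the 3 control libraries. MRPS27, a mitochondria-specific protein with repeats of the pentatricopeptide type, gave 61.7% to siRNA and MRPS14, the counterpart of bacterial S14, gave 55.3%. MRPL35 ran against the others, with a correlation over 12 libraries of -0.69 with the summed level of the set. For 53 of 75 genes that correlation was above 0.8, and its highest value was 0.985 for MRPS21. Each gene is part of that sum and all share the same libraries, so these values are descriptions. Between single genes the median pairwise correlation was 0.747 over 2775 pairs, and 0.462 once the mean of each replicate number was subtracted.

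**Figure D2:**
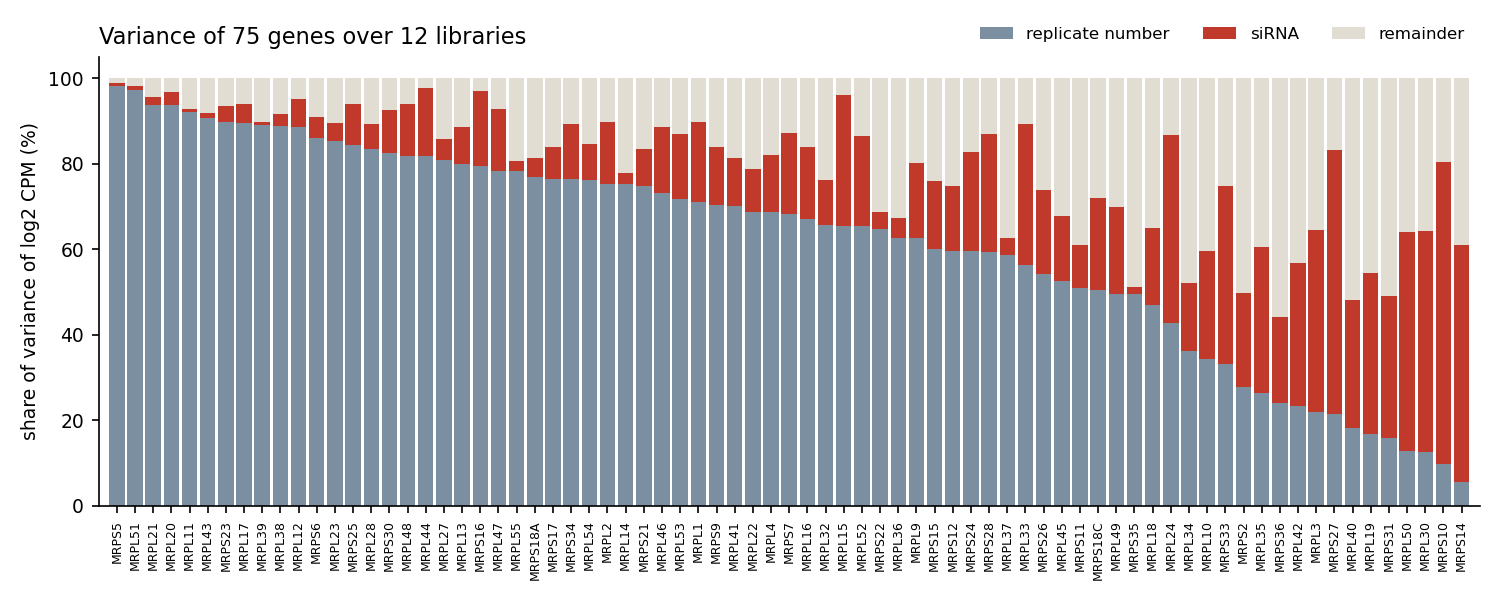
Share of the variance of log2 CPM over 12 libraries that went to replicate number, siRNA and the remainder, in percent, with 1 bar for each of 75 genes ordered by the first share. The replicate share falls from 98.1% for MRPS5 to 5.58% for MRPS14, and siRNA takes the largest share at the right, as in MRPS10 with 70.7%.

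Within this replicate structure, the double knockdown had the highest sum in 2 of 3 replicates. The summed level of the set was 5298, 6523 and 4483 CPM in control replicates 1 to 3. With HIF1A siRNA it was 6648, 6591 and 4430 CPM, and with HIF2A siRNA 6306, 5879 and 4492 CPM. It was 6563, 7489 and 4867 CPM in the double knockdown. Control replicate 1 stood below the other 3 libraries of its number, and replicate 2 of the double knockdown stood above all 12 libraries. The mean (± SD, n = 3) was 5435 ± 1027 CPM for control siRNA, 5559 ± 949 CPM for HIF2A siRNA, 5890 ± 1264 CPM for HIF1A siRNA and 6306 ± 1330 CPM for the double knockdown, and the groups overlapped. Within pairs, the double knockdown was above control by 23.9, 14.8 and 8.57% in replicates 1 to 3. HIF1A siRNA differed from control by 25.5, 1.05 and -1.17%, and HIF2A siRNA by 19.0, -9.86 and 0.199%. All 3 comparisons share the control libraries, among them the low replicate 1.

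**Figure D3:**
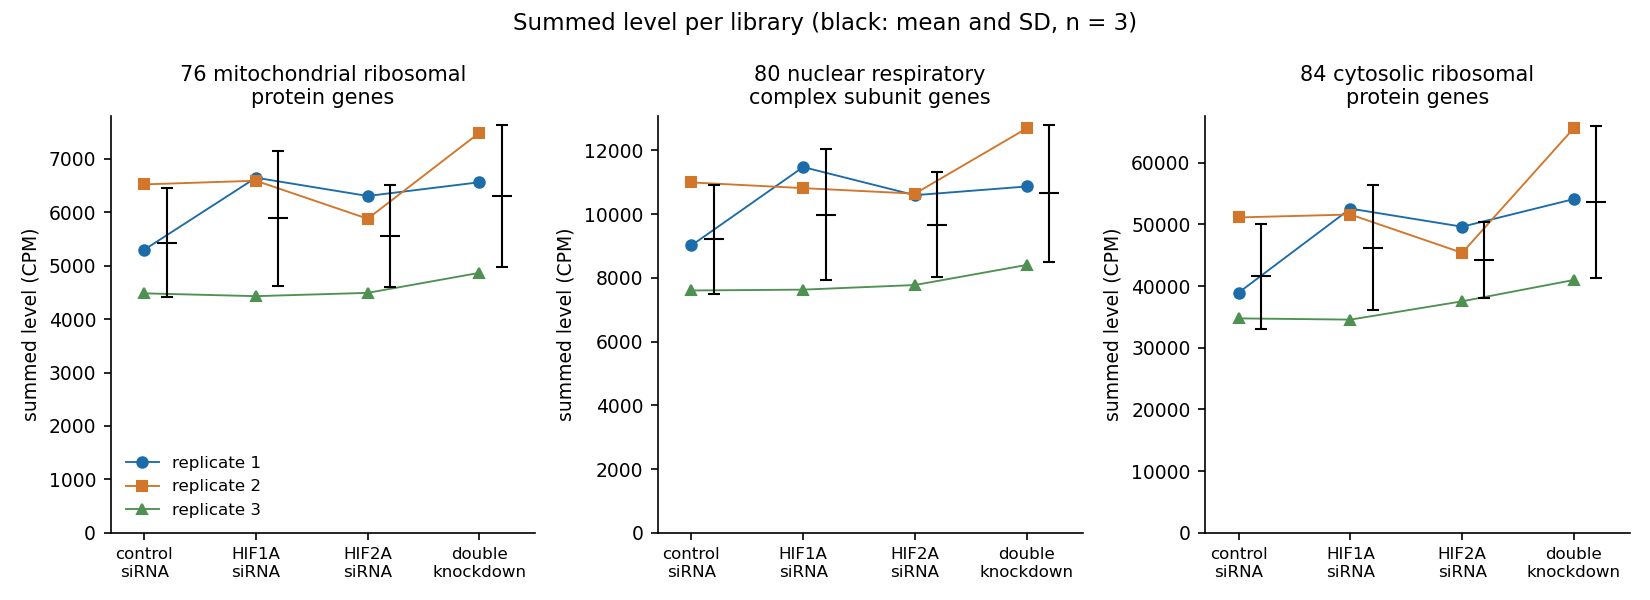
Summed level per library in CPM for the mitochondrial ribosomal protein genes, the nuclear genes of respiratory complex subunits and the cytosolic ribosomal protein genes, with lines joining libraries of the same replicate number and black bars for the mean and SD of 3 libraries. Replicate 3 is the lowest in each condition of every panel, and the double knockdown of replicate 2 is the highest library, at 7489 CPM in the first panel.

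The balance between the subunits changed little. The summed level of large subunit genes divided by that of small subunit genes was 1.94, 1.95 and 1.87 with control siRNA and 1.82, 1.88 and 1.75 in the double knockdown. For the single knockdowns it was 1.91, 1.90 and 1.79 (HIF1A siRNA) and 1.92, 1.97 and 1.82 (HIF2A siRNA). In every replicate the double knockdown had a lower ratio than control siRNA, and replicate 3 had the lowest ratio in every condition. The group ranges of control siRNA (1.87 to 1.95) and of the double knockdown (1.75 to 1.88) overlapped.

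The first comparison was that of HIF1A siRNA, in which EPAS1 was also at a lower level than in control. None of the 75 genes passed the quasi-likelihood test of edgeR (Benjamini-Hochberg adjusted p under 0.05) between HIF1A siRNA and control siRNA, where 1.17% of all 12830 genes tested were called. DESeq2 also called 0. At an unadjusted p under 0.05, 5 genes were higher and 0 were lower (2.42 and 4.9% of all genes). The estimates were above 0 for 65 of 75 genes, with a median log2 fold change of 0.09 against 0.00 for all genes. Other genes of like length were also above 0. In the shortest of 5 equal length classes of all genes, which held 58 of the 75, the median was 0.08, and it was 0.16 for the cytosolic ribosomal proteins and 0.11 for the respiratory subunits. The per-pair medians were 0.35, -0.01 and -0.03, so the shift came with replicate 1, and without control replicate 1 the median was -0.02 with 34 of 75 estimates above 0.

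The largest estimate in that comparison was that of MRPL24, the counterpart of bacterial L24. It was at 61.8, 81.8 and 52.2 CPM with control siRNA and at 92.8, 99.3 and 68.3 CPM with HIF1A siRNA. The groups overlapped through control replicate 2, but the gene was higher in 3 of 3 pairs, with a log2 fold change of 0.42, an SE of 0.13 and an adjusted p of 0.273 that failed the correction (edgeR's quasi-likelihood test, Benjamini-Hochberg). MRPS33 was at 83.0, 90.3 and 61.4 CPM with HIF1A siRNA against 55.6, 79.8 and 45.1 CPM with control siRNA, and MRPL15 was at 145, 164 and 107 CPM against 116, 125 and 94.8 CPM. Both were higher in 3 of 3 pairs and both failed the correction. MRPS10 and MRPS27 were the genes whose HIF1A siRNA libraries all lay above the control libraries (2 of 75 genes, against 2.84% of all genes).

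The second comparison was that of HIF2A siRNA. Between HIF2A siRNA and control siRNA, edgeR's quasi-likelihood test and DESeq2 called 0 of the 75 genes, where 0.0857% of all genes were called. At an unadjusted p under 0.05 in edgeR there were 0 genes of the set and 5.38% of all genes. The median log2 fold change was 0.03, from pair medians of 0.24, -0.13 and 0.00. The smallest p in this comparison was that of MRPS7, with a log2 fold change of 0.18 and an adjusted p of 0.940 (quasi-likelihood test of edgeR). No gene of the set was apart between the groups, where 2.4% of all genes were higher without overlap and 2.88% lower.

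Set directly against each other, the single knockdowns differed in 0 genes of the set by edgeR's quasi-likelihood test and by DESeq2, where 1.5% of all genes were called. MRPL24 was the gene with an unadjusted p under 0.05 (10.2% of all genes). It was at 70.3, 63.9 and 57.7 CPM with HIF2A siRNA, below its HIF1A siRNA level in 3 of 3 pairs, with a log2 difference of 0.42, an SE of 0.13 and an adjusted p of 0.211 (edgeR's quasi-likelihood test, Benjamini-Hochberg). The median difference over the set was 0.10.

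With both HIF genes knocked down, 2 genes of the small subunit rose. Against control siRNA, MRPS33 and MRPS28 passed the quasi-likelihood test of edgeR (Benjamini-Hochberg adjusted p under 0.05) and 0 genes fell, where 10.3% of all 13000 genes were called, 3.86% as higher. The share of the set that was called, 2 of 75, was below that of all genes in this fit, but the order turned with the libraries fitted: 22 of 75 were called against 20.8% of all genes with the 6 compared libraries alone, and 16 of 75 against 17.5% without HIF2A siRNA replicate 2. At an unadjusted p under 0.05, 23 genes were higher and 0 were lower, against 11.5 and 13.8% of all genes. Estimates were above 0 for 68 of 75 genes, with a median of 0.22 against 0.00 for all genes, and 45 genes were higher in all 3 pairs, against 26.1% of all genes. The per-pair medians were 0.33, 0.19 and 0.11.

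MRPS33 is a small mitochondria-specific protein of the small subunit. It was at 85.7, 110 and 66.5 CPM in the double knockdown and at 55.6, 79.8 and 45.1 CPM with control siRNA. Each double knockdown library was above its paired control, although the groups overlapped because control replicate 2 exceeded replicate 3 of the double knockdown. The log2 fold change was 0.54 with an SE of 0.16 and an adjusted p of 0.0430 (edgeR's quasi-likelihood test, Benjamini-Hochberg).

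MRPS28 is the mitochondrial relative of bacterial S1, and mutations in it impair mitochondrial translation. It was at 34.8, 48.6 and 25.9 CPM in the double knockdown and at 24.9, 28.3 and 22.7 CPM with control siRNA, again higher in 3 of 3 pairs with overlapping groups. Its log2 fold change was 0.49 with an SE of 0.14 and an adjusted p of 0.0451 by the same edgeR test. In the annotation it shares exons with a read-through gene model on the same strand. Both calls lay close to the threshold: MRPS33 was called in 11 and MRPS28 in 9 of 22 other settings.

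MRPL50, a mitochondria-specific protein of the large subunit, had the largest estimate in this comparison. It was at 26.1, 22.2 and 23.1 CPM in the double knockdown and at 17.4, 19.4 and 11.5 CPM with control siRNA, with no overlap between the groups. It was also above the 3 libraries of HIF1A siRNA (20.6, 18.3 and 17.0 CPM) and of HIF2A siRNA (18.7, 11.4 and 17.9 CPM). The log2 fold change against control siRNA was 0.57 with an SE of 0.20 and an adjusted p of 0.0840 by edgeR's quasi-likelihood test. MRPL30, MRPL42, MRPS10 and MRPS27 were the other genes whose double knockdown libraries were all above the control libraries, which made 5 of 75 genes against 7.08% of all genes.

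**Figure D4:**
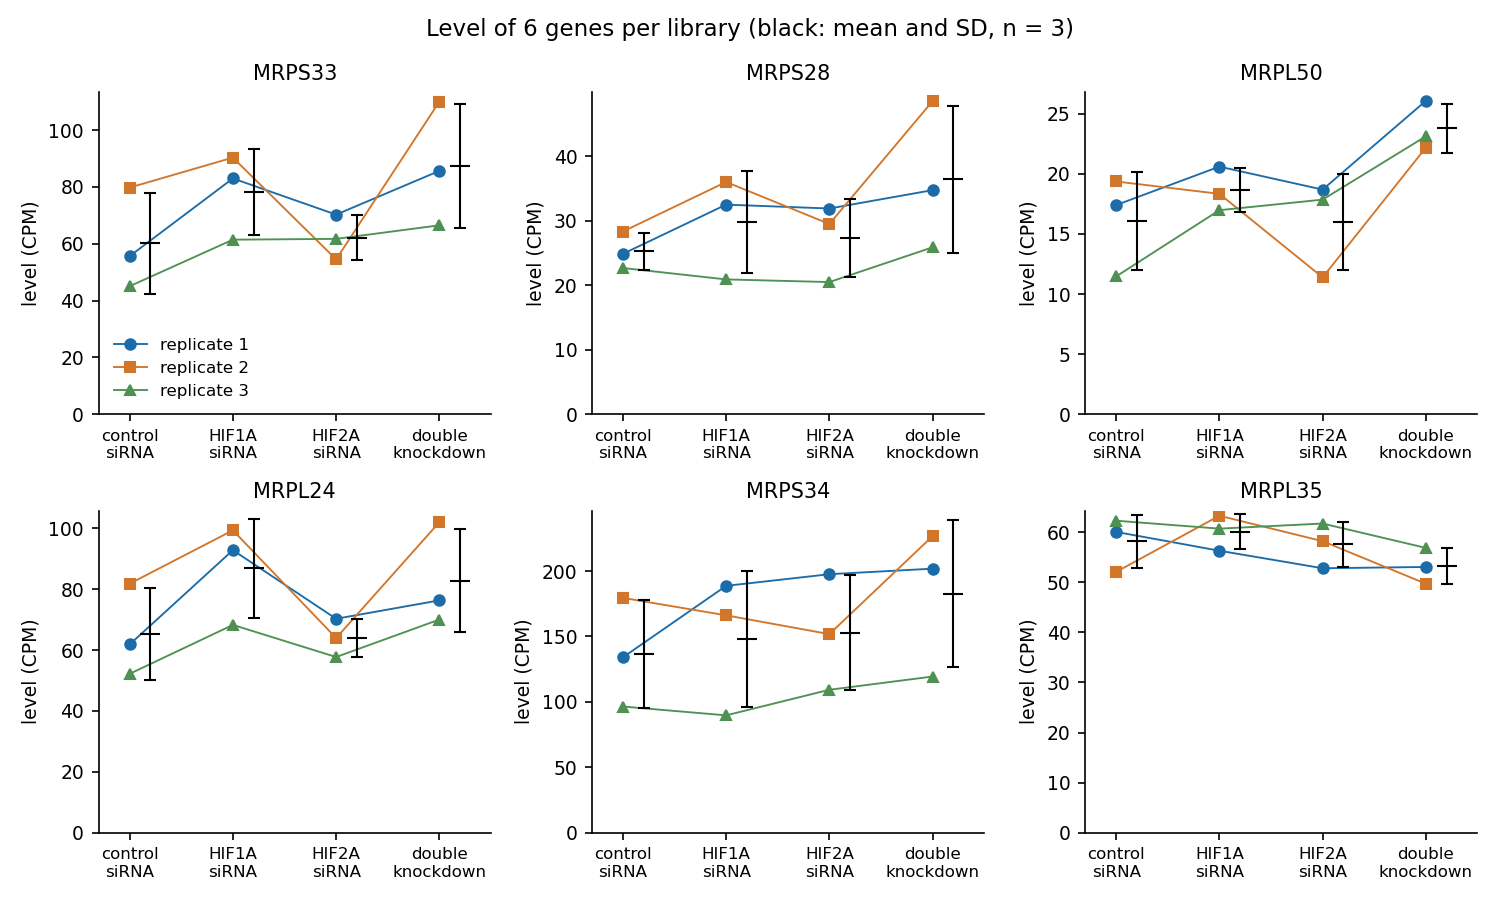
Level per library in CPM of 6 genes, with lines joining libraries of the same replicate number and black bars for the mean and SD of 3 libraries. MRPS33 and MRPS28 are higher in the double knockdown than in control siRNA in 3 of 3 pairs, MRPL50 reaches 22.2 to 26.1 CPM in the double knockdown without overlap, and MRPL35 is lower in 3 of 3 pairs.

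The genes named for their place in the ribosome gave estimates of 0.08 to 0.33 in this comparison. At the stalk that recruits translation factors, MRPL12 was at 119, 146 and 79.5 CPM with control siRNA and at 154, 181 and 95.2 CPM in the double knockdown, while its anchor MRPL10 was at 42.3, 45.3 and 37.3 CPM against 49.9, 46.0 and 41.6 CPM. Both were higher in 3 of 3 pairs, with log2 fold changes of 0.31 and 0.13. MRPL11, at the neighbouring factor-binding site, had an estimate of 0.08, and MRPS12, of the decoding centre, had 0.26. MRPL3, mutated in a mitochondrial cardiomyopathy, was at 122, 151 and 121 CPM with control siRNA and at 161, 187 and 149 CPM in the double knockdown. MRPS16, mutated in a fatal neonatal lactic acidosis, was at 137, 164 and 106 CPM against 183, 198 and 124 CPM. Both were higher in 3 of 3 pairs. Their adjusted p-values, 0.120 for MRPL3 and 0.0614 for MRPS16 in edgeR's quasi-likelihood test, were above the threshold. MRPS22, another disease gene, had an estimate of 0.10, and MRPL4, which lines the exit tunnel, had 0.21.

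The renamed and duplicated genes did not stand apart. MRPS30, which carries a small subunit name but sits in the large subunit, was at 39.5, 49.2 and 33.8 CPM with control siRNA and at 54.3, 53.0 and 36.4 CPM in the double knockdown. MRPS36 was at 17.1, 24.5 and 15.7 CPM against 23.1, 36.2 and 14.1 CPM, so that replicate 3 went the other way. MRPS18C was higher in 2 of 3 pairs and MRPS18A in 1 of 3, with estimates of 0.28 and -0.08. MRPL41 and MRPS6 had estimates of 0.30 and 0.19 and were higher in 3 of 3 pairs, and none of these 6 genes passed the test. MRPL13, MRPL35 and MRPL39 were lower in all 3 pairs, as were 25.4% of all genes.

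By subunit, 2 of 25 small subunit genes and 0 of 49 large subunit genes were called between the double knockdown and control siRNA, with medians of 0.26 and 0.20, where 3.86% of all genes were called as higher. At an unadjusted p under 0.05, 10 and 13 were higher, against 11.5% of all genes. By origin, 1 of 46 genes with a bacterial counterpart and 1 of 28 mitochondria-specific genes were called, with medians of 0.20 and 0.22. MRPS18A was counted as mitochondria-specific despite its relation to bacterial S18, as was MRPS18B, which had no counts. No difference between these classes was tested.

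Transcript length moved with this result. The genes of the set are short, with a median canonical transcript of 1224 bases against 3365 bases for all genes tested, and with the same GC content (48.0% in both). When all genes were divided by length into 5 classes of equal size, the shortest class held 57 of the 75, and in it the median log2 fold change between double knockdown and control siRNA was 0.12, while in the longest class it was -0.10. After the trend with length and GC was removed from each library, the median of the set was 0.15 against 0.03 for all genes, with 63 of 75 estimates above 0. In that fit 9 genes of the set were called, against 15.3% of all genes.

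The number of calls in this comparison turned on single libraries. It was 0 without control replicate 1, without any 1 of the HIF1A siRNA libraries or without any 1 of the double knockdown libraries, 1 without control replicate 3 or HIF2A siRNA replicate 3, 4 without control replicate 2 and 16 without HIF2A siRNA replicate 2. In the last of these fits the share of all genes called was also higher than with every library, as given above. These counts are therefore not read as a result about the set. Without control replicate 1 the median of the set fell to 0.11, with 61 of 75 estimates above 0.

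The double knockdown was next set against each single knockdown. Against HIF1A siRNA, edgeR's quasi-likelihood test and DESeq2 called 0 genes of the set (1.4% of all genes), and MRPS34 was the gene with an unadjusted p under 0.05, where 5.22% of all genes were higher and 6.97% lower. MRPS34, mutated in Leigh syndrome, was at 202, 227 and 119 CPM in the double knockdown and at 189, 166 and 89.7 CPM with HIF1A siRNA, higher in 3 of 3 pairs with overlapping groups. Its log2 fold change was 0.32 with an SE of 0.14 and adjusted p = 0.358 (quasi-likelihood test of edgeR). Its exons overlap those of EME2 on the opposite strand. The median of the set was 0.10, with 57 of 75 estimates above 0.

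Against HIF2A siRNA, edgeR's quasi-likelihood test called 0 genes of the set (4% of all genes) and DESeq2 called 1, while 20 genes were higher and 0 lower at an unadjusted p under 0.05 (7.75 and 10.1% of all genes). The median was 0.16, from pair medians of 0.06, 0.32 and 0.11, so that replicate 2 gave the largest difference. The largest estimate was that of MRPS31, a mitochondria-specific small subunit protein, at 0.62 with an SE of 0.28 and adjusted p = 0.255 (quasi-likelihood test of edgeR). Its level was 14.3, 21.4 and 16.4 CPM in the double knockdown and 11.6, 7.25 and 13.4 CPM with HIF2A siRNA. MRPL40, which lies in the interval deleted in DiGeorge syndrome, was at 41.5, 53.4 and 32.1 CPM against 40.0, 21.8 and 27.1 CPM. In both genes the HIF2A siRNA library of replicate 2 was the lowest of its group. MRPL50 was higher than with HIF2A siRNA in 3 of 3 pairs, with an estimate of 0.57 and an adjusted p of 0.136.

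Whether the combined effect departed from the sum of the single effects was tested as an interaction of the siRNAs. EdgeR's quasi-likelihood test and DESeq2 called 0 genes of the set, and edgeR called 0% of all genes. At an unadjusted p under 0.05, edgeR found 0 genes of the set and 2.45% of all genes. The median interaction over the set was 0.08 on the log2 scale, from pair values of -0.31, 0.36 and 0.13, so that the replicates did not share a direction. The smallest p in the set was that of MRPL48, a mitochondria-specific protein of the large subunit, with an interaction of 0.40 and an SE of 0.20.

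**Figure D5:**
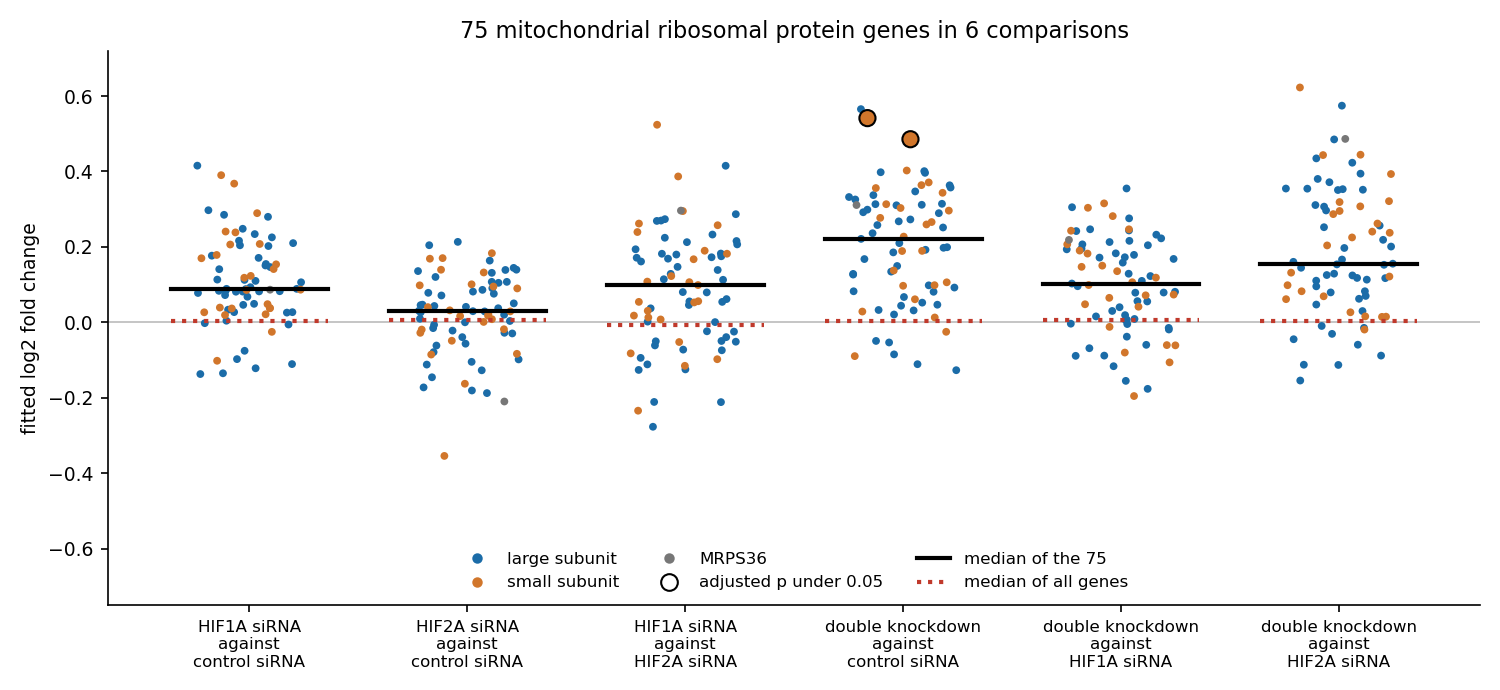
Fitted log2 fold change of 75 genes in 6 comparisons, with 1 point for each gene coloured by subunit, larger ringed points for an adjusted p under 0.05, black lines for the median of the set and dotted lines for the median of all genes. The median of the set is above that of all genes in each comparison, from 0.03 for HIF2A siRNA to 0.22 for the double knockdown against control siRNA, and the ringed genes are MRPS33 and MRPS28.

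The promoters of the set were searched for short motifs of factors known for nuclear genes of mitochondrial proteins. RefSeq promoter sequences from 250 bases before to 50 bases after the start were matched for 68 of the 76 genes in the build GRCh38.p14, and MRPL2, MRPL10, MRPL13, MRPL15, MRPL21, MRPL23, MRPL35 and MRPS28 were not matched. On either strand, the ETS core CCGGAAG, which GABPA binds, was found in 28 of 68 promoters (41.2%) against 14.2% of 15843 promoters of coding genes. The YY1 core AAGATGG was found in 33.8% against 6.4%, and the NRF1 core GCGCATG in 10.3% against 5.87%. The E-box CACGTG, bound by MYC and by MXI1 with its partner, was in 10.3% against 8.88%. The HIF core, ACGTG or GCGTG, was in 67.6% against 55.9%, and it includes the matches of the E-box. A match describes these letters in this window and is not evidence of binding.

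The 100 bases before the start site are shown for 5 genes named above, which span windows with and without the ETS core. They are written 5′ to 3′ on the strand of the gene, with the ETS core in capitals on whichever strand it was found (CCGGAAG or its reverse complement CTTCCGG). The windows are chr7:141014953-141015052 on the minus strand for MRPS33, chr9:101398619-101398718 on the minus strand for MRPL50, chr16:1773135-1773234 on the minus strand for MRPS34, chr22:19432445-19432544 on the plus strand for MRPL40 and chr13:40771191-40771290 on the minus strand for MRPS31.
MRPS33: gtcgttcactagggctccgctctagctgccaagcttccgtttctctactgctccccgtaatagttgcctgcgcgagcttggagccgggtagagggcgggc
MRPL50: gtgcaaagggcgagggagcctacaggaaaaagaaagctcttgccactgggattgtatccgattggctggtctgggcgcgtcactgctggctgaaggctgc
MRPS34: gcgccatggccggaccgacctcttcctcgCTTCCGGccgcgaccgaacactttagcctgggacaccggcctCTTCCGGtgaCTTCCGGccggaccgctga
MRPL40: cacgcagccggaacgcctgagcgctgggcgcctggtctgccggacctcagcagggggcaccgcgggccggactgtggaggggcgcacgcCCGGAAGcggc
MRPS31: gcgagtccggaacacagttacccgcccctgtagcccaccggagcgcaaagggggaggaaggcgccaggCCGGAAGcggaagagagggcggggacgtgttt
MRPS34 held 3 matches, at 71, 29 and 19 bases before the start, MRPL40 held 1 at 11 bases and MRPS31 held 1 at 32 bases. The windows of MRPS33 and MRPL50 held none in these 100 bases. Over the longer promoter searched above, MRPS33 counted among the genes with an ETS core and MRPL50 did not.

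The other genes of mitochondrial translation were examined from lists of fixed symbols. Of 7 ribosome subunits without an MRP symbol, 0 were called between the double knockdown and control siRNA by edgeR's quasi-likelihood test, with 2 higher at an unadjusted p under 0.05 (11.5% of all genes), a median of 0.17 and a range from -0.05 for DAP3 to 0.32 for PTCD3. Of 10 translation factors, MTIF2 rose (3.86% of all genes). MTIF2, the initiation factor that brings the initiator tRNA to the small subunit, was at 57.8, 72.4 and 58.4 CPM in the double knockdown and at 44.1, 46.2 and 45.3 CPM with control siRNA, without overlap. Its log2 fold change was 0.47 with an SE of 0.10 and an adjusted p of 0.00977 (edgeR's quasi-likelihood test, Benjamini-Hochberg), and it was also called against HIF2A siRNA, with 0.40 and an adjusted p of 0.0464. The elongation factor TUFM had an estimate of 0.29 and did not pass.

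Of 23 assembly factors, 3 rose in the double knockdown and 0 fell, where 3.86% of all genes rose and 6.42% fell. They were GTPBP5, a GTPase of large subunit assembly, with a log2 fold change of 0.59, MRM1, a methyltransferase of the large subunit rRNA, with 0.59, and MPV17L2, an inner membrane protein needed for ribosome assembly, with 0.76. Of 17 mitochondrial aminoacyl-tRNA synthetases, SARS2 (0.78) and NARS2 (0.50) rose and 0 fell. The medians of these lists were 0.21 and 0.12. With a single siRNA against control, edgeR's quasi-likelihood test called 0 genes of these 4 lists, while 3 assembly factors and 1 translation factor with HIF1A siRNA and 2 assembly factors with HIF2A siRNA were higher at an unadjusted p under 0.05 (2.42% of all genes with HIF1A siRNA and 2.49% with HIF2A siRNA).

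Among 15 regulators of mitochondrial biogenesis and of mitochondrial DNA expression, 4 rose and 1 fell in the double knockdown against control siRNA, where 3.86% of all genes rose and 6.42% fell. PPARGC1A, the coactivator PGC-1α, was scarce in these cells, at 3.80, 3.71 and 2.05 CPM with control siRNA, and stood at 7.58, 10.0 and 3.60 CPM in the double knockdown. Its log2 fold change was 1.10 with an SE of 0.30 and an adjusted p of 0.0314 by edgeR's quasi-likelihood test. PPARGC1B, the related coactivator PGC-1β, was at 5.33, 4.42 and 8.43 CPM with control siRNA and at 9.20, 9.48 and 11.6 CPM in the double knockdown. These groups did not overlap, unlike those of PPARGC1A. ESRRA, the nuclear receptor through which both coactivators act on mitochondrial genes, was at 26.3, 39.7 and 22.7 CPM against 50.8, 60.3 and 40.9 CPM. It rose by 0.78 on the log2 scale with an adjusted p of 0.00474 in the same edgeR test. The fourth was C10orf2, the mitochondrial DNA helicase, at 0.41.

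MXI1, an antagonist of MYC and a known HIF-1 target, fell. It was at 51.8, 51.9 and 39.6 CPM with control siRNA, at 23.2, 29.3 and 24.1 CPM with HIF1A siRNA and at 28.1, 31.8 and 17.7 CPM in the double knockdown, while with HIF2A siRNA it was at 43.3, 49.3 and 43.3 CPM. All libraries with HIF1A siRNA were below all others. It decreased by 0.90 on the log2 scale in both comparisons with control siRNA, with adjusted p-values of 0.00350 for HIF1A siRNA and 0.00102 for the double knockdown by edgeR's quasi-likelihood test. MYC, TFAM, NRF1 and YY1 had estimates of 0.02, 0.10, 0.15 and -0.01 in the double knockdown and were not called, nor was GABPA, with 0.41 and an adjusted p of 0.148.

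The set was compared with 2 other families of short transcripts. Of 77 cytosolic ribosomal protein genes tested, 17 rose and 0 fell between the double knockdown and control siRNA (3.86 and 6.42% of all genes), with a median of 0.37. Of these 77, 74 were higher in all 3 pairs, against 26.1% of all genes. Of 75 nuclear genes of respiratory complex subunits tested, 3 rose and 0 fell, with a median of 0.19, and 51 were higher in all 3 pairs. The set itself, with 2 called, a median of 0.22 and 45 higher in all 3 pairs, was nearer to the respiratory subunits. The sum of cytosolic ribosomal protein genes was above control by 38.9, 28.3 and 17.9% in replicates 1 to 3. No difference between the lists was tested.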

How the data were processed

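Bulk RNA-seq of RCC4 cells was analysed from 12 tables, 1 for each library, that hold raw counts per gene symbol. As the authors' methods state, TrimGalore (0.3.3) removed adaptors, HISAT2 (2.05) placed the reads on GRCh37 (hg19), fragments that did not map uniquely were removed with Picard (2.0.1), and the deposited counts were made with HTSeq (0.5.4p3) in its strict intersection mode; the strand setting is not given in the sources used here. The authors used DESeq2 with conditions paired by biological replicate and left out the double knockdown.

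Quasi-likelihood fits were made to the counts in edgeR (4.0.16, in R 4.3.3), with TMM normalization, the package's expression filter (minimum count 10, minimum total 15) and a block for replicate number. P-values were adjusted by Benjamini-Hochberg over all genes tested, at a threshold of 0.05. The single knockdowns were fitted over 9 libraries (12830 genes), and the double knockdown and the interaction over all 12 libraries (13000 genes). Differences within pairs were taken after adding 0.5 CPM. Fold changes are fitted values. The edgeR fit was also run on simulated counts with known changes, but the outcome is not given here and no result rests on it. DESeq2 (1.42.0) was an alternative, as were other normalization and filters, no block, removal of the trend with length and GC, the compared libraries alone and leaving out each library or replicate.

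The replicate numbers pair the libraries according to the study's methods. As a check, each library's deviation from the mean of its condition was correlated across genes with that of libraries from other conditions, which gave 0.0991 to 0.813 for the 18 pairs that share a number and -0.724 to 0.527 for the 36 pairs that do not. Number 3 stood clearly apart (0.724 to 0.813 among its libraries), while numbers 1 and 2 were poorly separated (-0.0784 to 0.527 between them, and 0.0991 to 0.706 within either), so the pairing of these rests on the methods. No library was merged with another, since all differed beyond sampling noise.

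The members and lists were chosen with earlier results of these data known. Genes were named where called, as the 3 largest estimates in each direction among those with an unadjusted p under 0.05 and 1 direction in all pairs, as the 5 highest and 5 lowest per length, where the filter removed them, and by role in the ribosome. Of 24 assembly factors listed, 23 were in the tables. Lengths were taken from GENCODE v44 and promoters from RefSeq (GRCh38.p14), whose build differs from that of the counts, so no coordinates of the count tables were used. In GENCODE v44, exons of 25 members overlap another gene, 15 of them on the opposite strand. Depth was 13263168 to 20451433 counts, and 3 replicates limit the precision.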

Additional observations from a re-analysis of the deposited data

How the results depend on the processing

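In 5 of 7 comparisons (the 3 among single knockdowns and control siRNA, the interaction, and HIF1A siRNA set against the double knockdown) the number of genes of the set that were called was 0 under every alternative run, and against HIF2A siRNA it was 0 except for 1 with the DESeq2 test. For the double knockdown against control siRNA, where 2 genes were called, the count was 8 with the DESeq2 test, 9 with the replicate block and the trend with length and GC removed, and 22 when only the 6 compared libraries were fitted, which leaves fewer libraries to estimate the spread. Without the replicate block it was 0, and it was 0 in 10 of 22 alternatives, that one among them. Leaving out replicates or single libraries gave counts from 0 to 16, and the cause was not tested. The other normalization and filters left it at 2. DESeq2 gave 1850 calls over all genes and edgeR 1336 in that comparison, 1983 with the trend removed, 2609 with the 6 compared libraries and 195 without the block.

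None of the 11 estimates chosen by the naming rule (for MRPL15, MRPL24, MRPL40, MRPL50, MRPS28, MRPS31, MRPS33 and MRPS34) changed sign under the alternatives run, and the other genes named were not followed through them. The median of the double knockdown against control siRNA lay between 0.11 and 0.28 and stayed above 0 in 22 of 22 alternatives, and that of HIF1A siRNA against control siRNA lay between -0.02 and 0.19.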
